A study of Homo sapiens with 14 samples.

Results

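The genes described here are 10 members of the machinery that lets a cell leave the G1 phase and start DNA synthesis. They are the cyclin genes CCND2, CCND3, CCNE1 and CCNE2, the cyclin-dependent kinase (CDK) genes CDK2, CDK4 and CDK6, and the pocket protein genes RB1, RBL1 and RBL2. They were taken by gene symbol, and all 10 were found among the 16405 genes of the knockdown table and among the 12325 genes of the RB98# table. All 10 passed the filter on low counts in both experiments.

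RNA-seq counts were analysed from 10 libraries of Kasumi-1, a single human leukaemia cell line with a translocation between chromosomes 8 and 21 that the labels call a myeloblast. In the knockdown experiment, cells were infected for 48 h with lentivirus carrying either a short hairpin RNA against RBPMS, an RNA-binding protein gene (shRBPMS, n = 3), or a scrambled hairpin (shCtrl, n = 3). Both of these groups were then selected with puromycin for 48 h, so the controls carry the infection and the selection too. In the treatment experiment, cells received RB98# (n = 2), a compound that the labels name by this code alone, or the solvent DMSO (n = 2). The labels give neither a dose nor a time for RB98#. Nothing in them ties replicates to separate cultures, and the spread behind the p-values may be technical. The series has 14 libraries, and the 4 from RNA immunoprecipitation and m6A sequencing are not analysed here.

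As background, D-type cyclins bind CDK4 and CDK6 early in G1, and E-type cyclins bind CDK2 later. These kinases phosphorylate the pocket proteins RB (RB1), p107 (RBL1) and p130 (RBL2), which otherwise hold E2F transcription factors in check. E2F factors then switch on genes of DNA replication. RBL1 and the E-type cyclins are themselves known targets of E2F, and p130 is the pocket protein that is typically abundant in resting cells. Leukaemias of the myeloid lineage are known to lean on CDK6.

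RBPMS itself had 2.53, 3.34 and 3.08 CPM (counts per 1000000 counts, scaled between libraries by the TMM method) in shRBPMS cells, against 20.4, 7.24 and 7.39 CPM in shCtrl cells. All shRBPMS libraries lay below all shCtrl libraries. The log2 change was -1.96 (SE 0.45), with an adjusted p of 0.0846 in edgeR's quasi-likelihood test with Benjamini-Hochberg adjustment over all genes. With the replicate number as a block it was -1.79 and the adjusted p was 0.0106. The size rests on shCtrl replicate 1: the log2 ratio was -3.01 within replicate 1 and -1.19 within replicates 2 and 3, and without that control the change was -1.30 and passed the test. RBPMS RNA had 6.62 and 8.06 CPM in RB98# cells, against 7.17 and 6.40 CPM in DMSO cells, and these groups overlapped.

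Per library, depth was 24.0 to 34.4 M counts (M, 1000000) for the knockdown and 13.9 to 15.3 M for RB98#. The knockdown libraries carry 2 kinds of label, called label set 1 (replicate 1 of each group) and label set 2 (replicates 2 and 3), and the sources used here do not explain the split. Label set 1 stood apart: mitochondrial genes took 13.2% of counts in shRBPMS and 15.2% in shCtrl there, against 6.20% to 6.95% in label set 2. Replicates 2 and 3 were much closer to each other, with a chi-square per degree of freedom over genes of 3.03 in shRBPMS and 3.01 in shCtrl cells, than to replicate 1, where it was 133 to 215. Whether replicates 2 and 3 come from separate cultures is not given in the sources used here, and the calls of label set 2 rest on the spread between them. The calls of the block rest on how the shRBPMS to shCtrl ratio differs among all replicate numbers, replicate 1 included. Knockdown results are therefore given from the design of group alone, from the fit with the replicate block, and within each label set. Genes listed as myeloblast markers were present, with CD34, KIT, CD33, MPO and RUNX1T1 summing to 12476 to 17812 unscaled CPM in the knockdown experiment and 14695 to 16094 in the RB98# experiment. MPO made up most of these sums, and single markers moved: CD33 rose after knockdown (1.71, adjusted p = 0.0246 in edgeR), while with RB98# CD33 (-0.84), KIT (-0.40) and CD34 (-0.37) fell and RUNX1T1 (0.37) and MPO (0.22) rose. RUNX1T1 fell after knockdown with the block (-0.68, adjusted p = 0.00535). Of 4 lymphoid markers, 3 were in the knockdown table, and they summed to 3.01 to 3.65 unscaled CPM in shRBPMS cells and 9.98 to 10.9 in shCtrl cells. Of 3 stromal and epithelial markers only EPCAM was in the table, at 37.2 to 63.6 unscaled CPM in shRBPMS cells and 27.1 to 37.4 in shCtrl cells (adjusted p = 0.407 with group alone and 0.0053 with the block), and none of 3 erythroid markers was. The part of these markers in the results below was not tested. In bulk RNA, fewer cells of a type and less RNA per cell cannot be told apart.

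After RBPMS knockdown, 7 of the 10 genes had lower means and 3 had higher means. With the design of group alone, 0 of the 10 passed an adjusted p of 0.05 in edgeR, beside 1.97% of all 16215 genes tested. An unadjusted p under 0.05 was seen for 2 of the 10, beside 2733 of the 16215 genes. With the replicate block, CCND2, CCNE1, CCNE2, CDK2, CDK6 and RBL1 fell and RBL2 rose, which is 7 of the 10 beside 28.1% of all genes tested. The median log2 change of the 10 genes was -0.37, beside 0.02 for all genes tested. In label set 2 alone, 1 rose and 7 fell, beside 42.2% of all genes. Adjusting for the label set instead called 8 of the 10, beside 35.8%.

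RB98# treatment split the 10 genes. CCND2, CDK6, RB1 and RBL2 rose and CCND3 and CCNE1 fell, which is 6 of the 10 in edgeR with group alone, beside 37.8% of all 12324 genes tested. The median log2 change was -0.06, beside 0.00 for all genes tested. Scaling bears on this split: with library totals in place of TMM factors the median over all genes shifted by -0.10, and calls over all genes were 1690 higher and 3276 lower, against 2530 higher and 2129 lower with TMM. Under library totals 3 of the 10 genes rose and 5 fell. CCND2, CDK6 and RB1 still rose and CCND3 and CCNE1 still fell, CCNE2 (-0.36), CDK4 (-0.23) and RBL1 (-0.24) fell as well, and RBL2 (0.09) no longer passed.

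**Figure D1:**
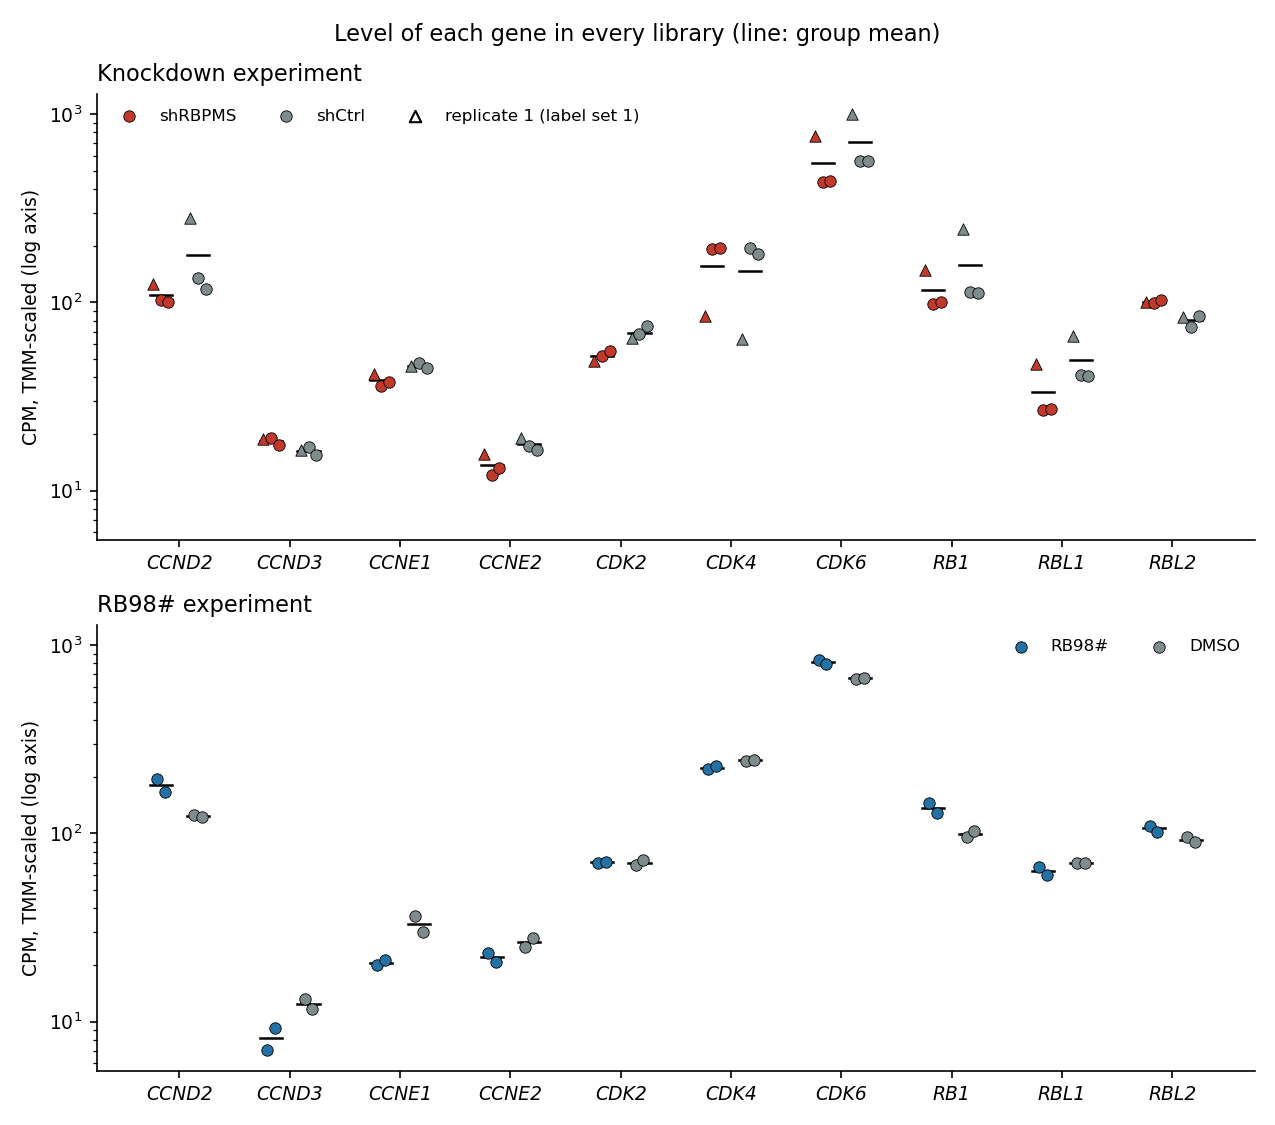
Level of each gene in every library (CPM scaled by TMM factors, log axis), with shRBPMS left of shCtrl in the upper panel and RB98# left of DMSO in the lower one; each point is a library, the line is the group mean, and triangles are replicate 1 of the knockdown experiment. The triangles of CDK6, RBL1, RB1, CCND2 and CCNE2 lie above the circles of their group and those of CDK4 and CDK2 below them. The RB98# and DMSO libraries lie close to their group means.

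Among the cyclins, CCND2 had a lower mean in shRBPMS than in shCtrl cells and a higher mean in RB98# than in DMSO cells. The difference between the 2 effects was 1.23 on the log2 scale (SE 0.47). It did not pass in edgeR with group alone (adjusted p = 0.146) and passed with the block (0.00736). CCND2 encodes cyclin D2, a partner of CDK4 and CDK6, and lies at chr12:4273772-4305350 on the plus strand (GRCh38, GENCODE release 29). It had 125, 103 and 101 CPM in shRBPMS cells, against 281, 134 and 118 CPM in shCtrl cells. The shRBPMS libraries were lower within each label set, but the highest of them lay above the lowest shCtrl library. Its log2 change was -0.70 (SE 0.33, adjusted p = 0.363 in edgeR), and -0.59 with the replicate block (adjusted p = 0.0379). The size rests on 1 control: the log2 ratio was -1.17 within label set 1, against -0.31 within label set 2, and leaving out shCtrl replicate 1 gave -0.22 (adjusted p = 0.429). CCND2 shares 989 exonic bases with AC008012.1, a protein-coding gene on the same strand, and has the named pseudogene CCND2P1, so its counts are uncertain to that extent in both experiments.

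With RB98#, CCND2 rose, to 195 and 167 CPM against 125 and 122 CPM with DMSO. Both treated libraries lay above both controls, and the log2 change was 0.55 (SE 0.07, adjusted p = 1.32e-06 in edgeR). It passed the test in every alternative run for this gene, including each one that left out a library.

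CCND3 encodes cyclin D3, another D-type cyclin (chr6:41934933-42050357, minus strand). It had 18.8, 19.1 and 17.4 CPM in shRBPMS cells, against 16.4, 17.0 and 15.4 CPM in shCtrl cells. The shRBPMS libraries all lay above the shCtrl libraries, by a log2 change of 0.18 (SE 0.13) that did not pass the test (adjusted p = 0.589, and 0.155 with the block). In RB98# cells it fell to 7.03 and 9.26 CPM, against 13.2 and 11.6 CPM in DMSO cells. Those libraries hold 103 and 124 counts of CCND3 with RB98#, against 193 and 185 with DMSO, the fewest counts of any of the 10 genes. The log2 change was -0.61 (SE 0.17, adjusted p = 0.00535 in edgeR). The call was lost without RB98# replicate 1 (-0.43, adjusted p = 0.0614) and without DMSO replicate 1 (-0.52, adjusted p = 0.0708). CCND3 has 2 named pseudogenes, CCND3P1 and CCND3P2, whose reads its counts may hold.

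CCNE1 and CCNE2 encode the E-type cyclins that activate CDK2. CCNE1 (chr19:29811898-29824308, plus strand) had 41.6, 35.9 and 37.8 CPM in shRBPMS cells, against 45.8, 47.9 and 44.8 CPM in shCtrl cells. The groups did not overlap, and the log2 change was -0.26 (SE 0.12), with an adjusted p of 0.343 in edgeR and 0.0436 with the block. With all libraries, RB98# gave CCNE1 the largest drop of the 10 genes, while without RB98# replicate 2 CCND3 fell further (-0.82, against -0.73 for CCNE1). CCNE1 fell to 19.9 and 21.1 CPM in RB98# cells, against 36.5 and 29.9 CPM in DMSO cells, a log2 change of -0.69 (SE 0.11, adjusted p = 3.45e-05 in edgeR) that passed in all alternatives run.

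CCNE2 (chr8:94879770-94896678, minus strand) had 15.7, 12.1 and 13.2 CPM in shRBPMS cells, against 19.1, 17.4 and 16.5 CPM in shCtrl cells. All shRBPMS libraries were lower, by -0.37 on the log2 scale (SE 0.16), with an adjusted p of 0.305 in edgeR and 0.0258 with the block. CCNE2 had 23.3 and 20.7 CPM in RB98# cells, against 25.0 and 27.7 CPM in DMSO cells. Both treated libraries were lower there too, but the log2 change of -0.26 (SE 0.11) missed the threshold (adjusted p = 0.0695 in edgeR). CCNE2 shares 1629 exonic bases with INTS8 on the opposite strand, and the sources used here do not say whether counting used the strand, so reads of this stretch cannot be assigned to either gene.

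Of the kinases, CDK2 had lower values in shRBPMS cells by the same amount in both label sets. CDK2, the partner of E-type and A-type cyclins, lies at chr12:55966769-55972784 on the plus strand. It had 48.9, 51.7 and 55.0 CPM in shRBPMS cells, against 64.6, 68.2 and 74.7 CPM in shCtrl cells. No library of one group reached the range of the other, and the log2 ratio was -0.40 in label set 1 and -0.42 in label set 2. The log2 change was -0.41 (SE 0.12), with an adjusted p of 0.146 in edgeR and 0.00425 with the block. DESeq2 on the same counts, also with group alone, gave an adjusted p of 0.0446. CDK2 was the only one of the 10 genes it called, beside 1339 of the 16215 genes tested.

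RB98# left CDK2 with no detectable difference: it had 70.0 and 70.1 CPM in RB98# cells, against 68.1 and 71.9 CPM in DMSO cells. Its log2 change was 0.00 (SE 0.08, adjusted p = 0.996 in edgeR). The 2 treated libraries lay between the 2 controls.

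CDK4 and CDK6 encode the kinases that D-type cyclins activate. CDK4 (chr12:57747727-57756013, minus strand) had 84.2, 191 and 193 CPM in shRBPMS cells, against 63.9, 193 and 182 CPM in shCtrl cells. The label set outweighed the knockdown: label set 1 lay below label set 2 by -1.19 (log2) in shRBPMS cells and by -1.55 in shCtrl cells, while the shRBPMS over shCtrl change was 0.10 (SE 0.48, adjusted p = 0.963 in edgeR, and 0.228 with the block). Its sign turned when shRBPMS replicate 2 (-0.08), shRBPMS replicate 3 (-0.10) or shCtrl replicate 1 (-0.27) was left out. With RB98#, CDK4 had 219 and 227 CPM, against 242 and 246 CPM with DMSO, a log2 change of -0.13 (SE 0.06, adjusted p = 0.0846 in edgeR) between groups that did not overlap. CDK4 shares 1369 exonic bases with TSPAN31 on the opposite strand and has the named pseudogene CDK4P1, so its counts may hold reads of either.

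CDK6 (chr7:92604921-92836594, minus strand) had 769.7, 436 and 440.0 CPM in shRBPMS cells, against 1004, 563 and 561 CPM in shCtrl cells. Replicate 1 was the highest in both groups, so the groups overlapped, yet the log2 ratio within a label set was -0.38 in set 1 and -0.36 in set 2. The group-alone fit gave -0.37 (SE 0.32, adjusted p = 0.667 in edgeR), and the blocked fit gave -0.37 with an adjusted p of 0.00457. Without the block its size depended on replicate 1, at -0.05 without shCtrl replicate 1 and -0.69 without shRBPMS replicate 1.

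CDK6 rose with RB98#, to 835 and 792 CPM against 662 and 673 CPM with DMSO. The log2 change was 0.29 (SE 0.05, adjusted p = 0.000153 in edgeR), and both treated libraries lay above both controls. In shRBPMS cells it was lower within each label set, and in RB98# cells it was higher.

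**Figure D2:**
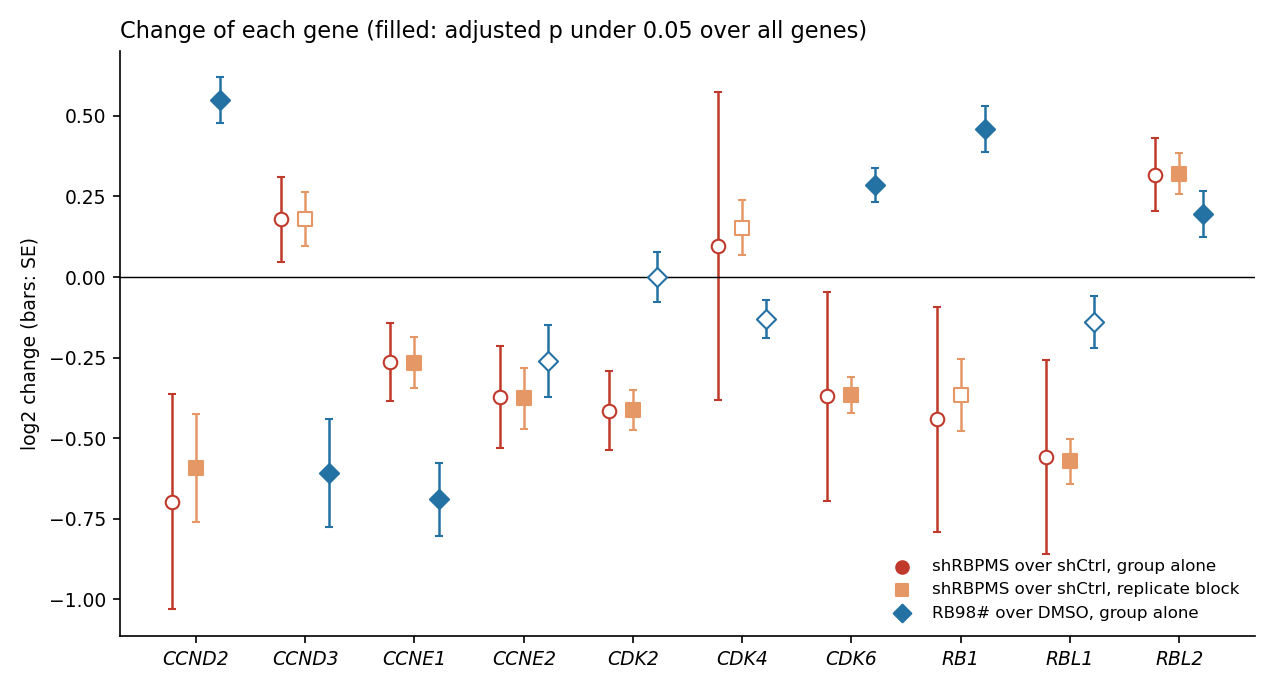
log2 change of each gene (points) with its SE (bars) for shRBPMS over shCtrl with group alone, shRBPMS over shCtrl with the replicate block, and RB98# over DMSO; filled points have an adjusted p under 0.05 over all genes. The block leaves the knockdown changes near where they were and shortens their bars, and CCND2, CDK6 and RB1 lie below 0 after knockdown and above 0 with RB98#.

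The pocket protein genes did not move as a family. RB1, which encodes the retinoblastoma protein (chr13:48303726-48599436, plus strand), had 149, 98.3 and 100.3 CPM in shRBPMS cells, against 247, 113 and 112 CPM in shCtrl cells. It was lower in shRBPMS within each label set, by -0.73 in set 1 and -0.18 in set 2 on the log2 scale. The change was -0.44 (SE 0.35, adjusted p = 0.623 in edgeR), and with the block it was -0.37 with an adjusted p of 0.0501, just outside the threshold. The sign of the group-alone change rests on shCtrl replicate 1, without which it was 0.02.

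With RB98#, RB1 rose, to 145 and 128 CPM against 95.4 and 103 CPM with DMSO. Both treated libraries were above both controls, and the log2 change was 0.46 (SE 0.07, adjusted p = 2.08e-05 in edgeR).

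RBL1, which encodes p107 (chr20:36996349-37095995, minus strand), had 46.8, 26.7 and 26.97 CPM in shRBPMS cells, against 66.3, 41.1 and 40.7 CPM in shCtrl cells. Replicate 1 was again the highest of its group, and within each label set the shRBPMS libraries were lower, by -0.50 in set 1 and -0.61 in set 2. The log2 change was -0.56 (SE 0.30, adjusted p = 0.421 in edgeR), and -0.57 with the block (adjusted p = 0.00195). RBL1 was the only one of the 10 genes past 0.05 in the authors' deposited table for the knockdown, with a log2 change of -0.59 and an adjusted p of 0.00123, where 11.3% of genes passed. In RB98# cells RBL1 had 66.6 and 60.1 CPM, against 69.9 and 69.8 CPM in DMSO cells, a log2 change of -0.14 (SE 0.08, adjusted p = 0.181 in edgeR).

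RBL2, which encodes p130 (chr16:53433977-53491649, plus strand), went the other way from RBL1 after knockdown. It had 99.97, 99.0 and 104 CPM in shRBPMS cells, against 83.7, 74.1 and 85.0 CPM in shCtrl cells. No shRBPMS library fell into the shCtrl range, and replicate 1 did not stand apart. The log2 change was 0.32 (SE 0.11, adjusted p = 0.223 in edgeR), and 0.32 with the block (adjusted p = 0.0113). With RB98# it had 110.0 and 102 CPM, against 95.2 and 90.3 CPM with DMSO, and rose by 0.20 (SE 0.07, adjusted p = 0.0310 in edgeR). This call was lost without RB98# replicate 1 (adjusted p = 0.120), DMSO replicate 1 (0.137) or DMSO replicate 2 (0.363), and in DESeq2 (0.0996). RBL2 shares 610 exonic bases with AKTIP on the opposite strand.

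RefSeq promoter windows (GRCh38.p14, 250 bases before to 50 after a start) were given for 7 of the 10 genes, and were searched for the E2F-type letters TTTCGCGC, TTTGGCGC, TTTCCCGC and TTTGCCGC on both strands. RBL1 was the only one of the 7 with a match, beside 3.992% of all 27305 genes with a window. The window given for RB1, at chr13:48476200-48476499, lies at an internal start, so the start of the gene as annotated above was not searched. The RBL1 window, at chr20:37095948-37096247 on the minus strand, is shown with the matches in capitals because RBL1 had the clearest knockdown call among the pocket proteins. They begin at -26 and -16 relative to the start. The window of CCNE1, at chr19:29811741-29812040 on the plus strand, is shown beside it as that of the gene with the largest called drop under RB98#, and holds none of these letters.
RBL1: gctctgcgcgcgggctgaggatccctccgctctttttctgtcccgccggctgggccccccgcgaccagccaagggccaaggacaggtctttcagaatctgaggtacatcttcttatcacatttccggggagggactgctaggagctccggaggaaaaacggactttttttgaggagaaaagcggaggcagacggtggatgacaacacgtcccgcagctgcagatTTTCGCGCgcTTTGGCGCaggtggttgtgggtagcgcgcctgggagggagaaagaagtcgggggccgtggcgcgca
CCNE1: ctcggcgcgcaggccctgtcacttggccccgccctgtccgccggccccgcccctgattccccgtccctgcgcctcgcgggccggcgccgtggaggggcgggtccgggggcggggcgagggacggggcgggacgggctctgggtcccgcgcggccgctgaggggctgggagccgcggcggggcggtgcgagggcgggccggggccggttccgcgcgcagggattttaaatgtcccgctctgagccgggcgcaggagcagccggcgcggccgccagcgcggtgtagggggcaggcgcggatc
A match is a description of these letters and no match says nothing about the factor. Of the E2F target list, 9 of 15 genes with a window held a match, beside that same share.

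By overlap of libraries alone, CCND3 and RBL2 lay wholly higher and CCNE1, CCNE2 and CDK2 wholly lower in shRBPMS than in shCtrl cells, 5 of the 10 beside 25.9% of all genes. With 2 libraries a group, 9 of the 10 did not overlap between RB98# and DMSO, beside 68.3% of all genes, with CDK2 the exception. In the authors' deposited table for RB98#, CCND2, CDK6 and RB1 passed as higher and CCNE1 as lower, 4 of the 10 beside 22.2% of genes.

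**Figure D3:**
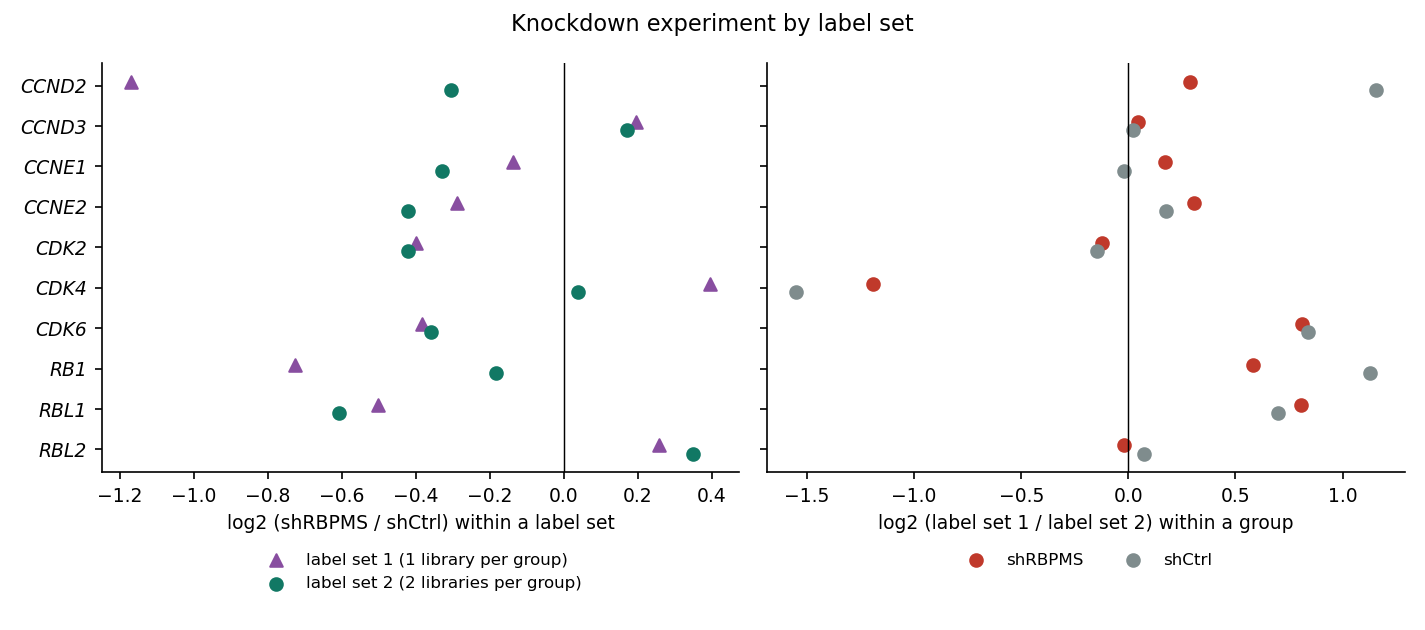
Knockdown experiment by label set, with the log2 ratio of shRBPMS over shCtrl inside each label set on the left and the log2 ratio of label set 1 over label set 2 inside each group on the right. On the left both sets of every gene lie on the same side of 0. On the right CDK4 lies far below 0 and CDK6, RBL1, RB1 and CCND2 above it in both groups. No gap of the other genes exceeds 0.31.

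The gap between label sets was larger than the knockdown change for several of the genes. CDK6 was 0.81 (log2) higher in label set 1 among shRBPMS libraries and 0.84 higher among shCtrl libraries. RBL1 had gaps of 0.80 and 0.70, and RB1 of 0.58 and 1.13. CCND2 had a gap of 0.29 in shRBPMS and 1.16 in shCtrl cells, so that its label set ratios differ the most. For CCND3, CCNE1, CCNE2, CDK2 and RBL2 no gap exceeded 0.31. The share of mitochondrial counts moves with the label set, and its part in these gaps was not tested.

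Whether the 2 effects differ was tested directly, as the RB98# over DMSO change minus the shRBPMS over shCtrl change in a fit of all 10 libraries. With group alone, 0 of the 10 genes passed an adjusted p of 0.05 in edgeR, beside 8.15% of the 12126 shared genes. An unadjusted p under 0.05 was seen for 4 of the 10, and the share of all genes at that cut was not taken. CCND3 came nearest: its difference was -0.80 (SE 0.21, adjusted p = 0.0530), and DESeq2 gave an adjusted p of 0.0067. With the replicate block 7 of the 10 passed, beside 37.1% of the shared genes, and adjusting for the label set instead gave 8, beside 44.9%. The blocked difference was 1.12 for CCND2, 0.81 for RB1, 0.64 for CDK6, 0.41 for RBL1 and 0.40 for CDK2, all higher with RB98# than after knockdown. It was -0.81 for CCND3 and -0.44 for CCNE1. RBL2, CDK4 and CCNE2 did not pass, with blocked differences of -0.14, -0.30 and 0.10.

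Ratios of counts between related genes inside a library do not depend on scaling between libraries. They were chosen after the values were seen and are given as a description, and the smallest two-sided p an exact permutation test allows is 0.1 with 3 libraries against 3 and 0.333 with 2 against 2. CCND2 reads outnumbered CCND3 reads 6.62, 5.42 and 5.79 to 1 in shRBPMS cells, against 17.1, 7.90 and 7.66 to 1 in shCtrl cells. With RB98# the same ratio was 27.7 and 18.0 to 1, against 9.51 and 10.5 to 1 with DMSO. The balance of the D-type cyclins lay toward CCND3 in shRBPMS and toward CCND2 in RB98# libraries, with no overlap in either experiment.

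For the kinases, the ratio was lower in shRBPMS than in shCtrl cells within each label set. CDK6 reads per CDK4 read were 9.15, 2.28 and 2.28 in shRBPMS cells, against 15.7, 2.91 and 3.09 in shCtrl cells. In RB98# cells the ratio was 3.81 and 3.50, against 2.73 and 2.74 in DMSO cells. Replicate 1 of both knockdown groups stood far above all other libraries of either experiment, and shCtrl replicates 2 and 3 lay near the DMSO libraries.

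RBL2 reads per RBL1 read were 2.13, 3.71 and 3.84 in shRBPMS cells, against 1.26, 1.80 and 2.09 in shCtrl cells. With RB98# the ratio was 1.65 and 1.70, against 1.36 and 1.29 with DMSO. The p130 to p107 message ratio was thus higher in every shRBPMS than in every shCtrl library, and higher in both RB98# than in both DMSO libraries. RB1 reads per RBL1 read were 2.18 and 2.13 with RB98#, against 1.36 and 1.48 with DMSO, and overlapped between the knockdown groups. CCNE1 reads per CCNE2 read were 0.856 and 1.02 with RB98#, against 1.46 and 1.08 with DMSO, and also overlapped between shRBPMS and shCtrl.

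**Figure D4:**
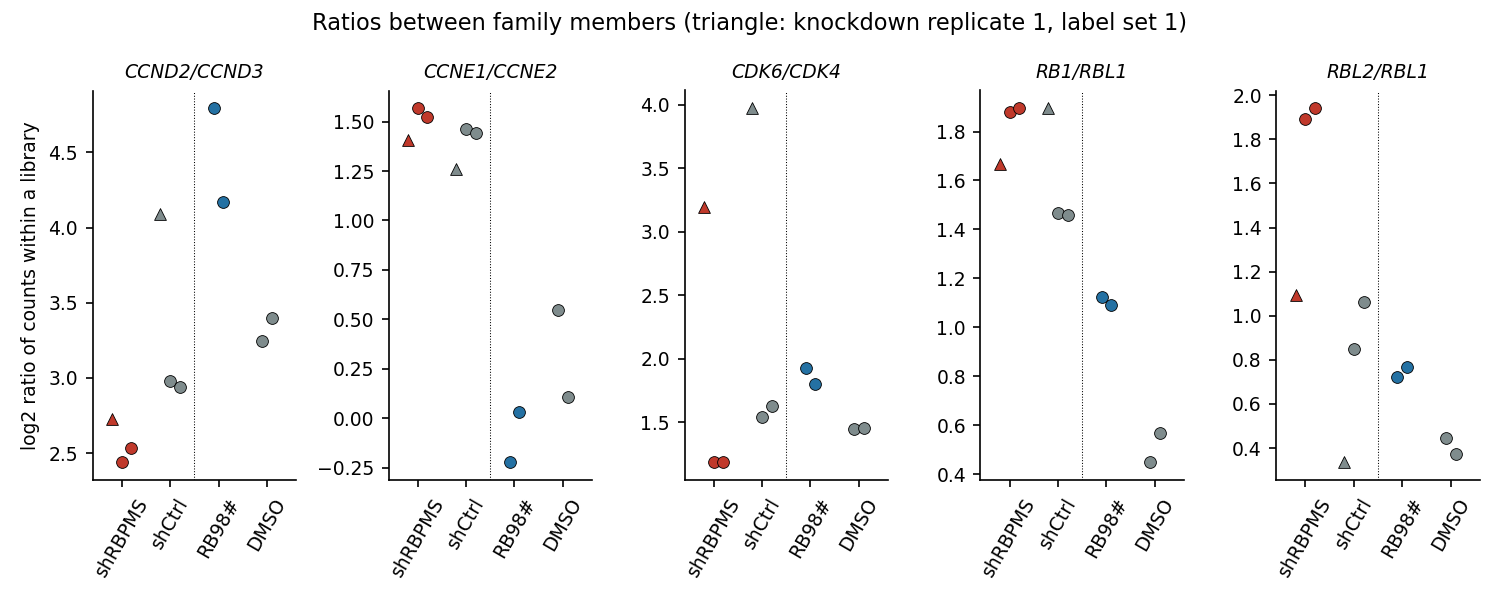
log2 ratio of the raw counts of 2 related genes inside each library, for 5 pairs, with shRBPMS left of shCtrl and RB98# left of DMSO; each point is a library and triangles are replicate 1 of the knockdown experiment. The RBL2 to RBL1 ratio lies higher in shRBPMS and in RB98# than in the controls beside them, and the CCND2 to CCND3 ratio lies lower in shRBPMS and higher in RB98#.

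Levels between genes were compared per length, as counts per kilobase of annotated exon and per 1000000 counts (RPKM). By mean, the kinases CDK4 and CDK6 held the top places in each group. In RB98# cells the order was CDK4 (70.4 ± 1.66), CDK6 (66.3 ± 2.46), CCND2 (25.3 ± 2.79), RB1 (21.2 ± 1.86), CDK2 (18.0 ± 0.026), RBL2 (14.5 ± 0.748), RBL1 (10.6 ± 0.774), CCNE1 (8.05 ± 0.332), CCNE2 (5.00 ± 0.417) and CCND3 (1.40 ± 0.271 RPKM, SD, n = 2). No neighbours in that order overlapped. In DMSO cells CDK4 (77.0 ± 0.774) and CDK6 (54.4 ± 0.616) led, CCNE2 (6.0 ± 0.441) and CCND3 (2.14 ± 0.191 RPKM, SD, n = 2) came last, and CCND2 stood level with CDK2 and CCNE1 level with RBL2, with overlapping libraries. By mean, CCND2 ranked above CDK2 with RB98# and below it with DMSO, and CCNE1 ranked below RBL1 with RB98# and above it with DMSO.

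In shRBPMS cells CDK4 (49.3 ± 19.7) and CDK6 (44.8 ± 15.6 RPKM, SD, n = 3) overlapped at the top, and the ranges of RB1, CCND2, CCNE1, RBL2 and CDK2 ran into each other, from 18.0 ± 4.44 RPKM for RB1 to 13.3 ± 0.787 RPKM for CDK2. RBL1 (5.63 ± 1.94), CCND3 (3.18 ± 0.158) and CCNE2 (3.10 ± 0.413 RPKM) closed the order. In shCtrl cells CDK6 (57.9 ± 20.8) stood before CDK4 (46.2 ± 22.6 RPKM, SD, n = 3), again overlapping. CDK4 also overlapped CCND2 there, since in shCtrl replicate 1 it stood at 20.2 RPKM, below CCND2 (39.2 RPKM) and RB1 (38.2 RPKM). In shCtrl cells CCNE2 (4.02 ± 0.305) and CCND3 (2.81 ± 0.141 RPKM) came last. CCND3 was the lowest or next to lowest of the 10 genes per length in all groups.

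The remaining genes of the pathway were read from 7 lists of 66 genes. Their counts of calls stand beside the shares of all genes called, 1.97% after knockdown with group alone, 28.1% with the block and 37.8% with RB98#. The CDK inhibitors held the largest changes in both experiments, but of different genes. CDKN1C, which encodes p57, fell to 0.372 ± 0.0493 CPM in shRBPMS cells, against 7.87 ± 1.5 CPM in shCtrl cells (SD, n = 3 each), a log2 change of -4.39 (SE 0.27, adjusted p = 0.00771 in edgeR). That call was lost when shRBPMS replicate 2 (adjusted p = 0.134), shRBPMS replicate 3 (0.127) or shCtrl replicate 3 (0.0766) was left out, at log2 changes of -4.28, -4.45 and -4.45. CDKN1A, which encodes p21, rose to 37.1 ± 4.41 CPM in RB98# cells, against 9.35 ± 0.0961 CPM in DMSO cells (SD, n = 2 each), a log2 change of 1.99 (SE 0.12, adjusted p = 4.66e-12). After knockdown CDKN1A had 7.44 ± 3.02 CPM, against 17.0 ± 5.43 CPM in shCtrl cells (SD, n = 3 each), with an adjusted p of 0.180 with group alone and 0.000801 with the block. Among the 6 inhibitors in each table, 0 rose and 1 fell after knockdown with group alone (beside 1.97% of all genes). With the block 1 rose, CDKN2A (0.65), and 3 fell, CDKN1A, CDKN1B (-0.25) and CDKN1C, beside 28.1%. With RB98#, 2 of the 6 rose and 2 fell (beside 37.8%). CDKN2D (1.16), which encodes p19 and was called neither in DESeq2 nor with RB98# replicate 2 (0.76) or DMSO replicate 2 (1.00) left out, was the other one that rose with RB98#, and CDKN1B (-0.42), which encodes p27, fell along with CDKN2C (-0.40).

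Of the 10 E2F factors and DP partners, 0 passed after knockdown with group alone and 1 rose and 4 fell with the block (beside 28.1% of all genes). With RB98#, 2 rose and 4 fell (2 and 6 under library totals, and 37.8% of all genes). The activators were divided: E2F1 (0.54, adjusted p = 1.03e-05 in edgeR) and E2F3 (0.37) rose and E2F2 (-0.35, adjusted p = 0.00775) fell. The repressors E2F8 (-0.74, adjusted p = 0.000106), E2F6 (-0.37, adjusted p = 0.00292) and E2F7 (-0.35) fell. The MuvB and DREAM list holds MYBL2, DYRK1A and the MuvB core, the partner of p107 and p130 in the repressor complex of resting cells. This list had 0 calls after knockdown with group alone and 5 lower of 7 with the block, beside 28.1% of all genes. These were LIN52 (-0.39), LIN54 (-0.29), RBBP4 (-0.26), LIN9 (-0.25) and MYBL2 (-0.20). With RB98#, 3 of its 7 genes rose, LIN52 (0.57), LIN9 (0.49) and LIN54 (0.46), and 0 fell, a share near the 37.8% of all genes, and under library totals 3 rose and 1 fell. The other cyclins and CDKs gave 0 calls after knockdown with group alone, 3 lower with the block, and 2 lower of 6 with RB98#, CCNA2 (-0.29) and CCNB1 (-0.16). The CCNB1 call (adjusted p = 0.0465 in edgeR) was lost with the block (0.103), and DESeq2 and limma-voom each called 1 lower in this list.

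E2F target genes of S phase had lower means in shRBPMS than in shCtrl cells in 18 of 18 cases, with a median log2 change of -0.41 beside 0.02 for all genes. With group alone only CHEK1, a checkpoint kinase gene, passed (-0.99, SE 0.11, adjusted p = 0.0229 in edgeR), and with the block 16 of 18 fell, beside 28.1% of all genes called. CHEK1 kept this call without shCtrl replicate 1 (adjusted p = 0.0214) and lost it without any other single library (adjusted p = 0.0542 to 0.156), at log2 changes of -0.95 to -1.04. With RB98#, 7 of the 18 fell and 1 rose, a share near the 37.8% of all genes, with a median of -0.09. Under library totals 12 fell and 0 rose. The falls numbered 5 in DESeq2 and 3 with the replicate block. RRM2, a ribonucleotide reductase subunit gene, fell the most (-1.05, adjusted p = 1.66e-12), followed by ORC1 (-0.30) and MCM5 (-0.27), and CHEK1 was the gene that rose (0.22), a call lost under library totals (0.12), in DESeq2 and on leaving out RB98# replicate 1 or either DMSO library.

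Turnover and activation genes were mixed with RB98#. Of 6 ubiquitin ligase genes, 1 rose (FBXW7, 0.40, the receptor that targets cyclin E) and 2 fell (SKP2, -0.56, the receptor that targets p27, and CUL1, -0.18). Of 11 CDK activators and modifiers, 4 rose and 3 fell, beside 37.8% of all genes (2 and 4 under library totals, 2 and 2 in DESeq2). The largest called changes were of CKS2 (0.53), PKMYT1 (-0.37) and MNAT1 (0.33). After knockdown both lists had 0 calls with group alone, and with the block 2 of 6 and 5 of 11 fell and 0 and 1 rose, beside 28.1% of all genes.

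**Figure D5:**
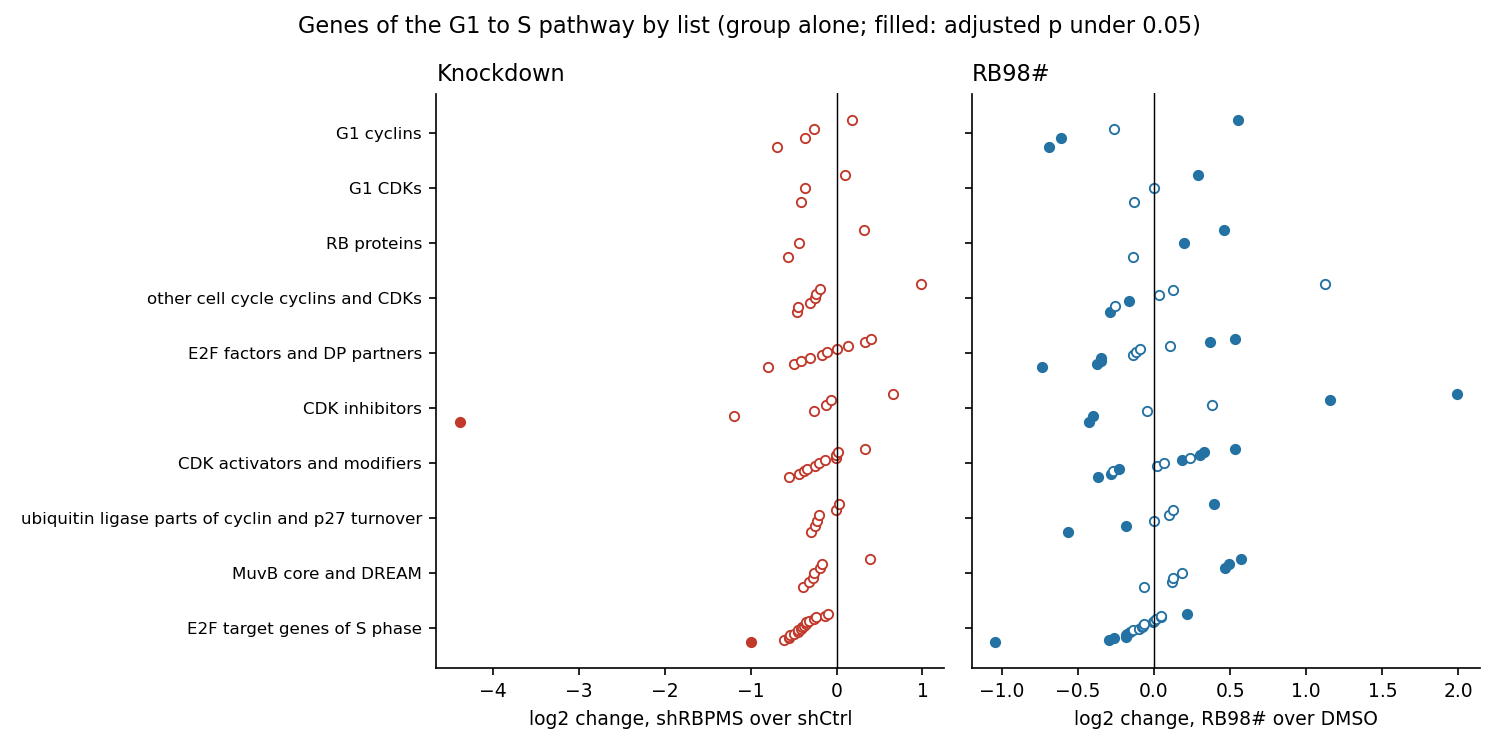
log2 change of each gene of the 3 lists of members and the 7 lists of other pathway genes, shRBPMS over shCtrl on the left and RB98# over DMSO on the right, both with group alone; each point is a gene and filled points have an adjusted p under 0.05 over all genes. On the left CDKN1C (-4.39) lies far out and all 18 E2F targets lie below 0; on the right CDKN1A (1.99) lies highest.

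CCNE1, the gene of the 10 with the largest called change under RB98#, was set against all 9965 genes with sufficient level in both experiments. Over the 10 libraries, each experiment centred on its controls, the genes most like it were TTF2 (Pearson's r 0.98), BLCAP (0.96), LINC01257 (0.96), TUBB (0.96) and MAT2A (0.96). Of the other members, CCND3 (0.72) and CCNE2 (0.57) were the most like CCNE1 and RBL2 (-0.56) the least. These values are a description, since the libraries share 2 experiments and their controls.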

How the data were processed

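Raw counts per gene for 10 Kasumi-1 libraries were used as the authors deposited them, in 1 table per experiment, per the file headers. Tools named in the submitters' processing notes, without roles, are HISAT2 2.2.1, fastp 0.22.0, DESeq2 1.32.0, featureCounts 2.0.1, MACS2 2.2.6, deepTools 3.5.1 and StringTie, with the build hg38. The sources used here do not say whether counting used the strand. The deposited log2 fold changes and p-values are the authors' own comparison and are quoted where named. Another 10 columns with values per library stayed unused, and 112 repeated lines were dropped by identifier from the RB98# table.

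Each experiment was fitted alone with edgeR 4.0.16 on R 4.3.3 (two-sided quasi-likelihood F test, TMM factors, filterByExpr with a count of 10 and a total of 15, group alone). Benjamini-Hochberg adjustment at 0.05 ran over all genes tested. The group-alone fit was also run on simulated counts. These held no shift between label sets, so they do not bear on the fits with the block or the label set. The SE is the log2 change over the square root of F. DESeq2 1.42.0 and limma 3.58.1 served as alternatives, beside other scaling, no filter, the label set as a covariate, label set 2 alone, and leaving out each library. RPKM used the exon length of GENCODE release 29.

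Same-numbered knockdown libraries deviated together (r = 0.732, 0.527 and 0.539 over 16215 genes), so a fit blocked on that number is given beside the group-alone fit. Replicate 2 against replicate 3 gave 0.526 and 0.541, so the pairing follows the label set. All members, RBPMS, up to 3 called genes of each other list with the largest change in each experiment, and the 5 genes most like the member with the largest called change under RB98# are named. CDKN2C, CHEK1, E2F2, E2F3 and E2F7 with RB98#, and the marker genes were named after their values were seen, as were the ratios. So were CDKN1A, CDKN1B, CDKN2A and the genes of the MuvB and DREAM list after knockdown. The members and lists were chosen with earlier results of these data known.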

Additional observations from a re-analysis of the deposited data

Results flagged for a closer look

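CCND3, the cyclin D3 gene, was flagged because its libraries moved in opposite directions in the 2 experiments with no overlap between groups in either. Such a lack of overlap was seen for 25.9% of all genes after knockdown and 68.3% with RB98#. The test of the difference itself did not pass with group alone. The RB98# over DMSO change minus the shRBPMS over shCtrl change was -0.80 on the log2 scale (SE 0.21), with an unadjusted p of 0.00454 and an adjusted p of 0.0530 in edgeR. The adjusted p was 0.0097 with the replicate block, and 0.209 without RB98# replicate 1 and 0.213 without DMSO replicate 1 with group alone. The RB98# change of -0.61 passed in edgeR (adjusted p = 0.00535) but not in the authors' deposited table (0.0973). The knockdown change of 0.18 did not pass in edgeR (adjusted p = 0.589 with group alone and 0.155 with the block). Both RB98# libraries lay below both DMSO libraries, and all 3 shRBPMS libraries lay above the shCtrl libraries. This restates the rule that flagged the gene and adds no support. RB98# and shRBPMS were set against different controls in separate experiments.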

How the results depend on the processing

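Knockdown calls depend on how the label set is treated: genes called numbered 320 with group alone in edgeR, 1339 in DESeq2, 4549 with the replicate block, 5810 with the label set as a covariate and 6830 in label set 2 only, and members called numbered 0, 1, 7, 8 and 8 of 10 under the same settings. With 1 library left out, genes called after knockdown numbered 0 to 322 (37 without shRBPMS replicate 1, 2 without shCtrl replicate 2, and 0 without shRBPMS replicate 2, shRBPMS replicate 3 or shCtrl replicate 3, with 1866 to 2010 at an unadjusted p under 0.05), and members called stayed at 0. Genes called under RB98# numbered 4659, and 2731 to 5028 with 1 library left out (2731 without DMSO replicate 2 and 2843 without DMSO replicate 1). The difference between the effects gave 0 members called with group alone, 1 under library totals, 1 in DESeq2, 7 with the replicate block, 8 with the label set, and 0 to 2 with 1 library left out, the 2 being CCND2 and CCND3 without shCtrl replicate 1. The direction turned for CDK2 under RB98# with DESeq2 size factors (-0.0033), library totals (-0.10), the DESeq2 test (-0.0032) and across left-out libraries (-0.038 to 0.041). It also turned for CDK4 (-0.27 to 0.40) and RB1 (-0.66 to 0.025) after knockdown across left-out libraries, for the CCNE2 difference under library totals (-0.022) and for the CDK4 difference across left-out libraries (-0.55 to 0.11). The cause was not tested. In RB98#, whose same-numbered libraries did not deviate together (r = -0.0458), the replicate block called 5 members and 4430 genes, against 6 and 4659, and lost RBL2 (adjusted p = 0.0561). Of 410 values of single members under these alternatives, 341 stayed on their side of the threshold with the same sign. With a library left out of a group of 2, the remaining one is assumed to vary like the other group. Depth limits CCND3 most, at 103 counts in RB98# replicate 1.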
